A study of Mus musculus with 8 samples.

Results

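The 10 genes described here are the core of mouse Notch signalling: the receptors Notch1, Notch2, Notch3 and Notch4, the ligands Dll1, Dll4, Jag1 and Jag2, and the target genes Hes1 and Hey1. They were chosen by name, and all 10 were found among the 21900 protein-coding genes of the RefSeq gene table for GRCm38 (mm10). Each was set against a list of 32927 summits, the single-base high points of the peaks that chromatin immunoprecipitation (ChIP) of V5-tagged ZGLP1 gave. A summit was linked to a gene when it lay inside the gene or within 10 kb or 50 kb of either end. By this rule 44 distinct summits fell inside or within 10 kb of the 10 genes, and 69 inside or within 50 kb.

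ZGLP1 is a nuclear protein with GATA-like zinc fingers, which the series' title connects with female germ cell fate. Every library came from cells of strain C57BL/6 x DBA2 that overexpressed V5-tagged Zglp1 under doxycycline (Dox). The ChIP libraries, from equal numbers of cells, were made from c7 primordial germ cell-like cells (PGCLCs) with Dox only, c8 PGCLCs with Dox only, c7 PGCLCs with Dox and retinoic acid (RA), c8 PGCLCs with Dox and RA, and embryonic stem cells (ESCs) with Dox and RA. Input chromatin came from c8 PGCLCs with Dox only, c8 PGCLCs with Dox and RA, and ESCs with Dox and RA. PGCLCs are germ cell-like cells made in culture from ESCs; they received the agents from c3 onward and were sorted for the SC reporter and mCherry. ESCs received both agents for 24 h and were sorted for mCherry. The protocol names H18 BVSC and BDF1-2-1 BVSC as the ESC lines, and the sample labels do not say which of them each library came from. Each group had 1 library, and the protein was introduced rather than the cells' own.

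A single list of summits stands for the whole experiment, and which of the ChIP libraries it draws on is not given. It names no library, cell type or treatment and holds no peak height, so no group could be compared and no replicate error exists for any position below. Depth is unknown, and a place with no summit may be unbound or below the submitters' threshold. No markers could be checked against the labelled cell types. The closest pair of summits anywhere in the list lay 397 bases apart. The gene table gives no exons, so summits are placed inside or outside a gene and not by exon, intron or UTR.

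In Notch signalling, a ligand of the Delta or Jagged family on one cell binds a Notch receptor on its neighbour. The receptor is then cut by an ADAM protease and by gamma-secretase, and its intracellular domain enters the nucleus, where it joins the DNA-binding protein RBPJ and a Mastermind coactivator. Genes of the Hes and Hey families, which encode basic helix-loop-helix repressors, are classic targets. In the mouse ovary, Jagged ligands on germ cells and Notch receptors on the surrounding somatic cells are known for their part in follicle assembly.

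Summits were found at every one of the 10 genes. All 10 had a summit inside, against 54.5% of protein-coding genes, and all 10 had one inside or within 10 kb, against 68.4%. At 50 kb it was again 10 of 10, against 78.3%. Since most protein-coding genes also had a summit in these windows, presence alone sets the 10 genes little apart. Within 10 kb the 10 genes had from 2 to 8 summits, with a median of 4.5, and protein-coding genes as a whole had a median of 1 and a 90th percentile of 5. At least 5 summits, a cut chosen after the data were seen, were found at 5 of the 10 genes (Hes1, Notch1, Notch3, Notch4 and Dll4), against 10.8% of protein-coding genes. With summits under 1 kb apart merged, 3 of the 10 had at least 5 (Hes1, Notch3 and Notch4), against 5.88%. With each summit counted for its nearest protein-coding gene, 4 of the 10 did. The share of all protein-coding genes under that rule is not given here, so this count has no background beside it. Of the 44 summits within 10 kb, receptors had 21, ligands 12 and targets 11. The 10 genes were chosen with earlier results of these data known, and genes are not replicates, so these shares are descriptions and carry no test.

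**Figure D1:**
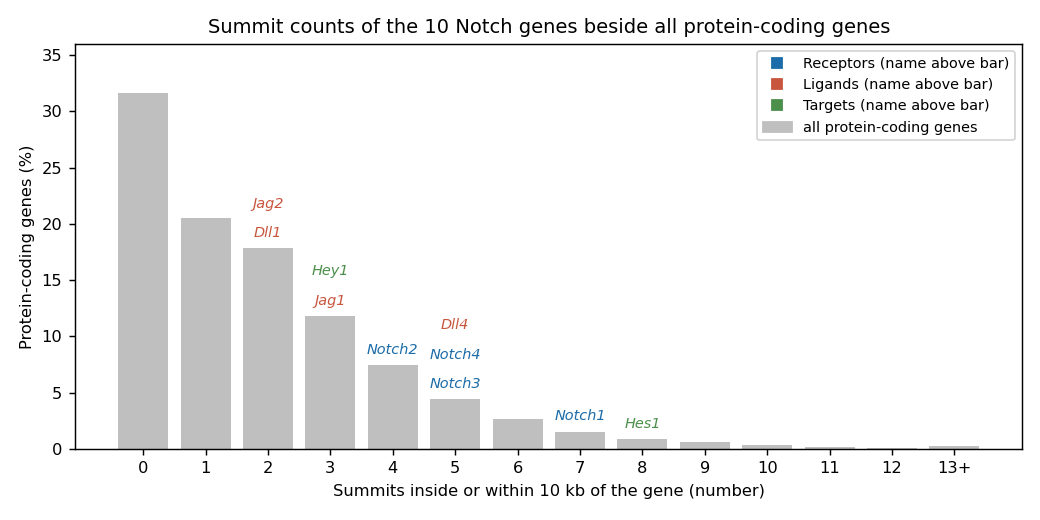
Bars give the percent of all protein-coding genes (vertical axis) with each number of summits inside or within 10 kb (horizontal axis), and the names of the 10 Notch genes stand above the bar for their own number. Hes1 with 8 and Notch1 with 7 stand farthest right, and Dll1 and Jag2 with 2 each stand farthest left of the 10.

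The ends of the genes were not alike. Direction could be read from the RefSeq promoter table for 8 of the 10 genes (all but Hes1 and Hey1) and for 17492 protein-coding genes. All 8 had a summit within 1 kb of the annotated start, against 51.5% of genes with a direction. At least 2 summits within 1 kb of the start were found for 5 of the 8, against 15.5%, and summits on both sides of the start for 4 of the 8 (Notch1, Notch2, Dll4 and Jag2), against 11.5%. These counts are of summits as deposited. At Notch1, Notch2, Jag1 and Dll4 the summits next to the start lie under 1 kb from each other, and merging within 1 kb joins them. Those of Jag2 lie farther apart. Whether the close summits are separate sites was not tested. Within 1 kb of the other end, 2 of the 8 had a summit (Notch1 and Notch3), against 6.20%, and these 2 thus had one at both ends, against 4.49%. For Hes1 and Hey1, distances are given to either boundary, called lower and upper by coordinate. Both also had one there, at under 1 kb from a boundary, which was thus true of 10 of 10 genes, against 52.9% of protein-coding genes.

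**Figure D2:**
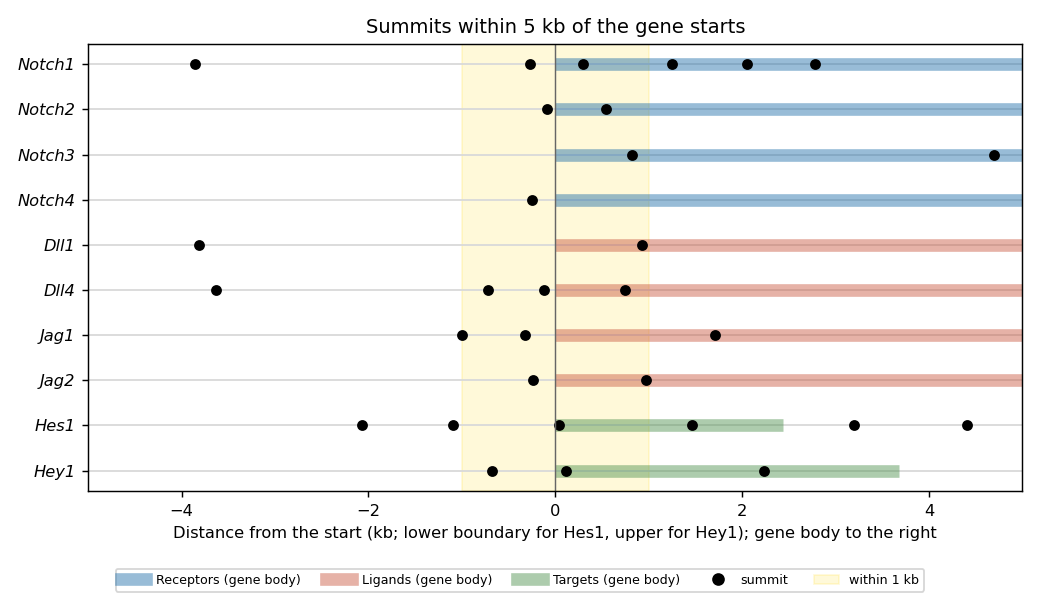
Each row is 1 gene, with the distance in kb on the horizontal axis and the gene body as a coloured bar. Each point is 1 summit, and the first 1 kb on each side is shaded. The 8 genes with a direction are drawn from their start. Hes1 and Hey1 have no direction here and are drawn from a chosen boundary, the lower for Hes1 and the upper for Hey1. Each of the 8 has a point in the shaded zone, and Notch1 has 5 points in a row from 267 bases upstream to 2782 bases into the gene. From its lower boundary, the closest Hey1 summit would lie 1444 bases away, outside the zone.

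Among the receptors, Notch1 had the most summits as deposited, an order that did not hold after merging. Notch1, the receptor needed for arterial and T cell development, lies on chromosome 2 from 26457902 to 26503822 on the minus strand. It had 5 summits inside, a number that 2.82% of protein-coding genes reached, and 7 inside or within 10 kb, which 3.78% reached. The summits around its start lay 2782, 2048, 1249 and 293 bases into the gene and 267 and 3858 bases upstream. The 5 closest of them to each other, from 26501040 to 26504089, formed a run with gaps of 560 to 956 bases over 3049 bases. Runs of at least 5 summits with gaps under 1 kb were rare: the whole list held 23 of them, with 0.377% of all summits, and 0.128% of protein-coding genes had one starting inside or within 10 kb. Whether such a run is several sites or one broad region reported as several summits was not tested; merging summits under 1 kb apart left 3 at Notch1 and 3 at Notch2, against 5 each at Notch3 and Notch4.

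Notch1 was the nearest protein-coding gene of all these summits, and 1 of them also lay in a noncoding gene. The summit 267 bases upstream lies inside Gm35978, a long noncoding RNA gene next to the Notch1 start, 17 bases beyond the far edge of the RefSeq promoter window. The 250 bases before the annotated start (chromosome 2, 26503823 to 26504072, minus strand, GRCm38) are shown because they sit inside the run, between the summit upstream and the first one in the gene. Capitals mark the word GGGCGG on either strand, the core of the GC box that Sp and Klf factors bind:
Notch1: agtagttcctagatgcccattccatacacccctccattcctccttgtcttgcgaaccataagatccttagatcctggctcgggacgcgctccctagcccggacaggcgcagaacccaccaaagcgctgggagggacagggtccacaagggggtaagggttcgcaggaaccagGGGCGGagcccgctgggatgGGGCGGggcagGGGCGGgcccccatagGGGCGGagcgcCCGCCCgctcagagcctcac

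Notch1 also had a summit at its other end, 749 bases inside the gene and 45171 bases from the start. It lies in the overlapping noncoding gene 0610009E02Rik as well. A summit 37916 bases upstream had Notch1 as its nearest protein-coding gene. The other 3 summits between 10 and 50 kb lay on the far side, at the neighbouring genes Sec16a and Inpp5e.

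Notch2, the receptor that pairs with Jag1 in several tissues including the ovarian follicle, spans 136830 bases of chromosome 3 from 98013538 to 98150367 on the plus strand. It had 3 summits inside and 4 inside or within 10 kb. A pair stood at the start, 84 bases upstream and 543 bases inside, and the other 2 lay 11033 and 72384 bases into the gene, the first of them also in the noncoding gene Gm40103. Of the genes with 0.5 to 2 times its length, 26.5% had at least 4 summits, so for a gene of this size the number is ordinary. Within 10 kb of its other end Notch2 had 0 summits. A further summit lay 17092 bases upstream, with Notch2 as the nearest protein-coding gene.

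The Notch2 summit next to the start falls inside the promoter window, which was true of 18.8% of the 32851 windows in the table. The 250 bases before the start (chromosome 3, 98013288 to 98013537, plus strand, GRCm38) are shown with the 41 bases centred on the summit in capitals:
Notch2: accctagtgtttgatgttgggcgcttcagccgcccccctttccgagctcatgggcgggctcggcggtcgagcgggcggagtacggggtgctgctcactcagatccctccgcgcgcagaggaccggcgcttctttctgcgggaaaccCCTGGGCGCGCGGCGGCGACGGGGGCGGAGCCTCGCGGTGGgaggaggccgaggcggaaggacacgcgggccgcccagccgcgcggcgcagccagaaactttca

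The capital stretch of Notch2 is 87.8% G or C and holds 9 CG dinucleotides. Over the 5369 such stretches that fit into promoter windows, the medians were 65.9% and 3. It also holds the word GGGCGG, which 19.8% of those stretches do.

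Notch3, the receptor of vascular smooth muscle and pericytes, lies on chromosome 17 from 32120820 to 32166896 on the minus strand. It had 4 summits inside and 5 inside or within 10 kb, a number that 10.8% of protein-coding genes and 10.8% of genes with 0.5 to 2 times its length reached. They were spread along the gene rather than gathered, at 819, 4694 and 23484 bases into the gene, 941 bases before its end and 6692 bases past the end. The last 2 lie in Gm38585, a noncoding gene that overlaps the Notch3 end. No summit lay upstream within 10 kb; the nearest on that side, 16463 bases away, stood 411 bases from Ephx3.

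Notch4, the receptor of endothelial cells, lies on chromosome 17 from 34564286 to 34588543 on the plus strand, in the gene-dense major histocompatibility region. It had 2 summits inside, 8261 bases into the gene and 1101 bases before its end, and 1 lay 252 bases upstream of the start. Within 10 kb it had 5 in all, but the remaining 2 stood nearer to other genes, 159 bases from an end of Gpsm3 and 704 bases from an end of Pbx2. Counting each summit for its nearest protein-coding gene left 3 at Notch4. With 9 other protein-coding genes within 50 kb, the 5 summits farther out were also nearer to neighbours, Rnf5, Agpat1 and Prrt1.

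**Figure D3:**
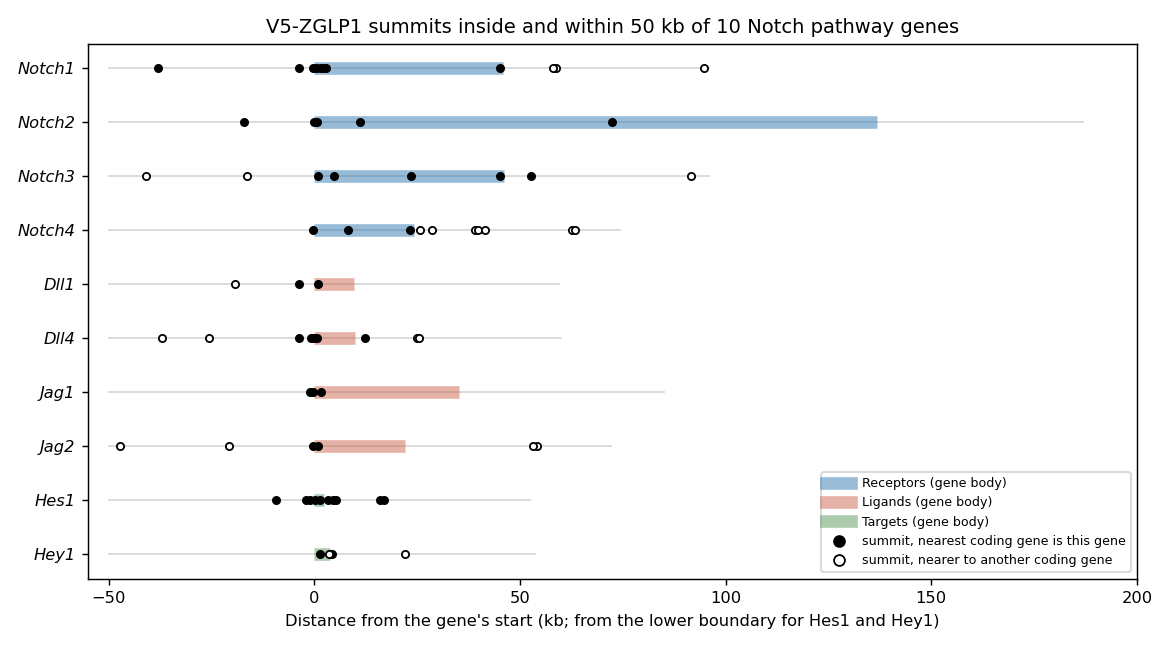
Each row is 1 gene with the distance from its start in kb (lower boundary for Hes1 and Hey1) on the horizontal axis, a coloured bar for the gene body, a grey line for the 50 kb on either side, filled points for summits whose nearest protein-coding gene is the gene itself and open points for the others. Filled points gather at the starts and, for Hes1, on both sides of the gene, and 21 of the 25 points beyond 10 kb are open.

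The ligands had fewer summits than the receptors within 10 kb, 12 against 21, but not within 1 kb of the start. Within 1 kb of the start the ligands had 8 and the receptors 6, and within 10 kb of it the ligands had 11 and the receptors 12. Each of the 4 ligands had 1 summit inside the gene, and together they had 4 inside, against 14 for the receptors. Within 10 kb Dll4 had 5, Jag1 had 3, and Dll1 and Jag2 had 2 each. At least 3 summits were found at 30.0% of protein-coding genes and at least 2 at 47.9%, so the counts of Jag1, Dll1 and Jag2 are ordinary ones. The gene bodies differ in length, from 9579 bases for Dll1 to 136830 for Notch2, so inside counts of ligands and receptors are not on an equal footing.

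Dll4, the Delta ligand of endothelial tip cells and of the thymic epithelium, lies on chromosome 2 from 119325784 to 119335666 on the plus strand. Its summits lay 3629, 717 and 125 bases upstream of the start, 747 bases inside the gene and 2324 bases past the end. The middle 3 fell within 1 kb of the start, a number that 1.21% of genes with a direction reached, and formed a run over 1464 bases. All 3 upstream summits also lie in the noncoding gene Gm14207, and the farthest lies in Gm52558 too. Per 10 kb of the gene and its 10 kb flanks, Dll4 had 1.67 summits, which 4.93% of protein-coding genes reached. The 250 bases before its start (chromosome 2, 119325534 to 119325783, plus strand, GRCm38) hold 1 of these summits and are shown for comparison with Notch2, again with the 41 bases centred on the summit in capitals:
Dll4: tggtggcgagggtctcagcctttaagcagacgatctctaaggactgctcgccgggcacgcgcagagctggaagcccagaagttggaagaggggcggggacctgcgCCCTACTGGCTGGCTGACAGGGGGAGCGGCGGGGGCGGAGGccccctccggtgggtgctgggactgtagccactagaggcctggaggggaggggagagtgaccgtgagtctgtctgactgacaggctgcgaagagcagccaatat

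The capital stretches of Dll4 and Notch2 share the word CGGGGGCGGAG, 11 bases long and the longest word common to both. It was picked after the sequences were seen. On either strand it occurs in 1.04% of promoter windows with a summit and 0.375% of those without, and in 0.499% of all windows. The Dll4 stretch is 78.0% G or C and holds 3 CG dinucleotides, fewer than the 9 of Notch2.

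Dll1, the Delta ligand of somite and neural patterning, lies on chromosome 17 from 15367354 to 15376932 on the minus strand. Its 2 summits within 10 kb lay 927 bases into the gene and 3816 bases upstream. The promoter table lists a second, inner start for Dll1, at 15375823, and the first of these summits lies 182 bases upstream of that one. The next summit, 19248 bases upstream, stood 22 bases from Fam120b. The 250 bases before the inner start (chromosome 17, 15375824 to 15376073, minus strand, GRCm38) are shown because the summit falls in that window and not in the one of the outer start, with the 41 bases centred on it in capitals:
Dll1: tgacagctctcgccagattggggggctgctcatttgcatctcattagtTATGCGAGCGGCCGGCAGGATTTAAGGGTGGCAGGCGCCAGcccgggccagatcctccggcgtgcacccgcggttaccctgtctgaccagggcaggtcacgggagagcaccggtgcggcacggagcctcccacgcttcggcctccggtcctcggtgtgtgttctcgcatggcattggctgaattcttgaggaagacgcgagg

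The stretch of Dll1 is 65.9% G or C with 4 CG dinucleotides. It holds no GGGCGG, unlike those of Notch2 and Dll4, and the 250 bases shown hold none either.

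Jag1, the Jagged ligand whose human counterpart is mutated in Alagille syndrome, lies on chromosome 2 from 137081451 to 137116520 on the minus strand. Its 3 summits lay 997 and 329 bases upstream of the start and 1707 bases into the gene. Those 3 were the only ones within 50 kb, and the closest summit beyond was 189314 bases from the gene, the largest such distance among the 10 genes. A boundary of Slx4ip lies 100 bases past the Jag1 end, and no summit lay within 10 kb of that end. Genes with 0.5 to 2 times the length of Jag1 had at least 3 summits in 31.6% of cases.

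Jag2, the Jagged ligand of limb and palate development, lies on chromosome 12 from 112907803 to 112929812 on the minus strand. Its 2 summits within 10 kb lay on either side of the gene's edge, 234 bases upstream and 972 bases inside. The promoter table puts the start of Jag2 at 112929495, inside this edge, and from there the closest summit is 551 bases upstream. Between the 2 summits lies the promoter window of Jag2, which holds 63 CG dinucleotides in 300 bases, a number that 0.0304% of all windows reached, and no summit. The 4 summits from 10 to 50 kb out were nearer to other genes, Gpr132, Brf1 and Btbd6.

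Of the 2 target genes, Hes1 had the most summits of all 10 genes for its size. Hes1, the repressor that keeps neural and pancreatic progenitors from differentiating, spans 2440 bases of chromosome 16 from 30065357 to 30067796. It had 8 summits inside or within 10 kb, a number that 2.26% of protein-coding genes and 1.08% of genes with 0.5 to 2 times its length reached. Below the lower boundary they lay 9431, 2071 and 1095 bases outside the gene, inside it 43 bases from the lower and 972 bases from the upper boundary, and beyond the upper boundary 761, 1972 and 2919 bases outside. Per 10 kb of the gene and its flanks this came to 3.57 summits, which 0.187% of protein-coding genes reached.

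None of the Hes1 summits was shared with another protein-coding gene. The nearest other one is 188582 bases away, and all 10 summits within 50 kb, including a pair 13440 and 14400 bases past the upper boundary, had Hes1 as their nearest. The summits 761 and 1972 bases past the upper boundary lie in Gm32998, a noncoding gene beside Hes1. The gaps between the 8 summits were mostly above 1 kb, so merging at 1 kb left 6, and the count at Hes1 rests less on closely spaced summits than that at Notch1.

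Hey1, a Hes-related repressor of cardiovascular development, spans 3680 bases of chromosome 3 from 8663359 to 8667038. It had 3 summits within 10 kb, 115 and 2235 bases inside its upper boundary and 678 bases beyond it. A further protein-coding model, LOC115489673, overlaps the upper boundary of Hey1, and the summit 115 bases inside lies 1 base from that model's boundary. The summit 678 bases beyond lies inside LOC115489673, although the boundary nearest to it is that of Hey1. One more summit, 18296 bases past the upper boundary, lies in the noncoding gene Gm32561. At least 3 summits were found at 28.3% of genes with 0.5 to 2 times the length of Hey1.

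Beyond 10 kb most summits were nearer to other genes. Of the 25 summits lying 10 to 50 kb outside the 10 genes, 4 had the gene itself as their nearest protein-coding gene (1 each for Notch1 and Notch2, and the pair at Hes1) and 21 had another, 9 of these within 1 kb of an end of that gene. Within 10 kb the corresponding number was 3 of 44. The summit closest to the 10 kb limit on the inside was that of Hes1 at 9431 bases and on the outside that of Notch1 at 12098 bases. For the 50 kb limit these were the Notch1 summit at 48744 bases and a Dll4 summit at 54704 bases.

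The promoter table held 9 windows for 8 of the genes, each from 250 bases before to 50 bases after an annotated start. A summit lay in 3 of the 9 (Notch2, Dll4 and the inner start of Dll1), against 18.8% of all windows. In 2 more the closest summit was just beyond the window, by 11 bases for Notch4 and 17 bases for Notch1. The windows were mostly rich in CG. Their median was 23 CG dinucleotides, within a range of 5 to 63, and the median was 24 in all windows with a summit and 5 in those without. Notch4 had 5, the fewest, and had a summit 11 bases outside its window.

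**Figure D4:**
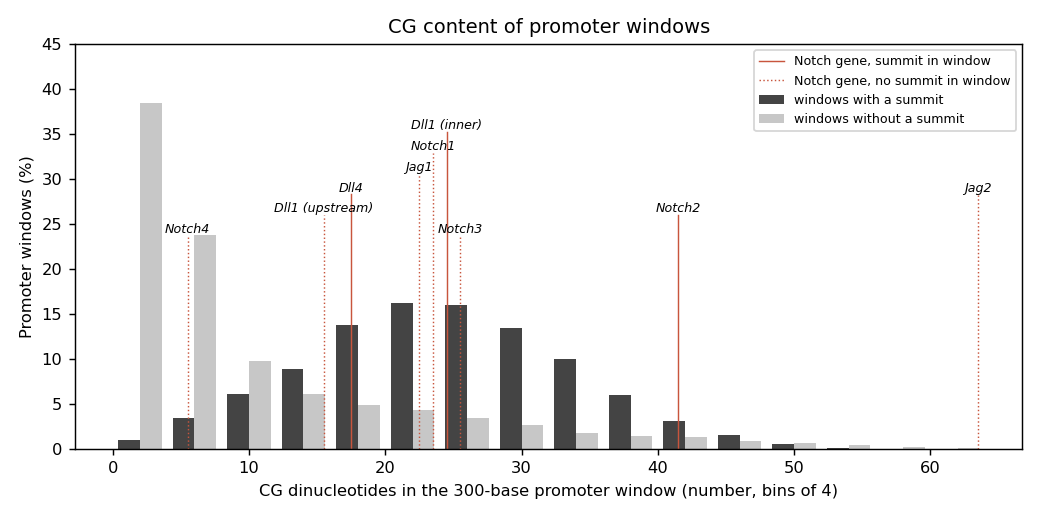
Bars give the percent of promoter windows (vertical axis) by number of CG dinucleotides in 300 bases (horizontal axis, bins of 4), dark for windows with a summit and light for those without, and vertical lines mark the 9 Notch gene windows, solid with a summit and dotted without. Notch2 with 41, Dll4 with 17 and the inner start of Dll1 with 24 are the solid lines, and Jag2 with 63 lies at the right edge.

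Motif words were searched on both strands of the 9 windows. GATA, the core word of GATA factors, occurred in 2 of them, Notch3 (222 and 195 bases before the start) and the inner start of Dll1 (6 and 18 bases after it). It occurs in 57.9% of all windows, in 38.8% of windows with a summit and in 62.3% of those without. The longer forms AGATAA and TGATAA, and the same 2 with G as the last letter, which contain it, occurred in none of the 9, against 29.8% of all windows. For these forms the share was 13.9% of windows with a summit and 33.4% of those without. TGGGAA, the core word of RBPJ sites, and the longer GTGGGAA that contains it also occurred in none, against 25.6% and 6.38% of all windows. CACNAG, the N-box word of Hes proteins, occurred in 5 of the 9 and in 42.5% of all windows. CANNTG, the E-box word, occurred in 4 of the 9 and in 72.3% of all windows. With a summit the CANNTG share was 61.6%, and without one 74.8%. CACNAG and CANNTG can overlap. GGGCGG, added after the sequences were seen, occurred in 5 of the 9 (Notch1, Notch2, Notch3, Dll4 and Jag2) and in 35.7% of all windows, with 70.0% of windows that hold a summit and 27.7% of those that do not; of the 5, Notch2 and Dll4 hold one. A match is a run of letters and not a shown binding site, and the absence of a word says nothing about what lies outside the window.

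The rest of the pathway was described with 76 further genes in 8 lists by role. Distances below are to the start, or to either end where a gene has no direction. Nearest genes are not given for these lists, so a gene's count may include summits that lie nearer to a neighbour. Of these, 72 had a summit inside or within 10 kb (94.7%, against 68.4% of protein-coding genes), and their median was 3 summits, against 4.5 for the 10 core genes and 1 for protein-coding genes. A summit within 1 kb of an end was found for 60 of the 76 (78.9%, against 52.9%). The 4 genes with none within 10 kb were Dlk1, Mfap2, Mfap5 and Mfng, with the closest summit 51212, 13719, 17861 and 33834 bases from an end.

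The ligand-like genes were the list with the lowest share of the 8. Of the other ligands and ligand-like genes, 3 of 6 had a summit within 10 kb. Dner, a neuronal non-canonical ligand, had one 7 bases from its start, Dlk2 one at 1428 bases and Dll3, the Delta family member that acts inside the cell, one at 2449 bases from the start. Dlk1, an imprinted inhibitor of differentiation, and the microfibril genes Mfap2 and Mfap5 had none.

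All 8 of the other Hes and Hey genes were within 10 kb of a summit, with a median of 3. Hey2 had one 65 bases from its start, Hes5 at 110 bases and Hes7, the oscillating gene of the somite clock, at 118 bases. Within 10 kb Hes7 had 8, as many as Hes1, but within 50 kb it had 18 and Hes1 had 10. Helt had 1, at 8204 bases. Other genes known as Notch targets also had one in 8 of 8 cases, among them Myc (35 bases), Nrarp (182 bases) and Ccnd1 (210 bases). Dtx1 had one 156 bases from its other end but none nearer its start than 7316 bases. Gata3 had 1 within 10 kb, at 8375 bases, and Cdkn1a, which encodes the cell cycle inhibitor p21, had 8.

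The genes of the nuclear complex had a summit in 10 of 10 cases. Rbpj itself, the DNA-binding partner of every Notch receptor, had 7 within 10 kb, with the closest 110 bases from its start. The closest of the list were those of Rbpjl, an Rbpj paralogue, at 33 bases, and of the acetyltransferase genes Ep300 and Kat2a at 54 and 59 bases. Maml3, a Mastermind coactivator gene of 418000 bases, had 11. Of the corepressor genes, 15 of 15 had a summit, with a median of 5, and L3mbtl3, Cir1 and Ctbp2 had theirs 54, 64 and 87 bases from the start. Spen, whose product holds RBPJ targets silent, had 10 summits within 10 kb.

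Genes that process the receptor had a summit in 10 of 10 cases, mostly few in number (median 2.5). Aph1a, of the gamma-secretase complex, and Adam10, the protease of the first cut, had one 13 and 18 bases from the start. Among the glycosylation genes 5 of 6 had one, including the Fringe gene Lfng (44 bases), Poglut1 (199 bases) and Pofut1 (217 bases), while the Fringe gene Mfng had none within 10 kb. The list of ubiquitin and endocytosis genes had one in 13 of 13 cases, all within 1 kb of an end, with Neurl1a (13 bases), Aak1 (32 bases) and Numb (57 bases), the last an antagonist of Notch, closest.

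**Figure D5:**
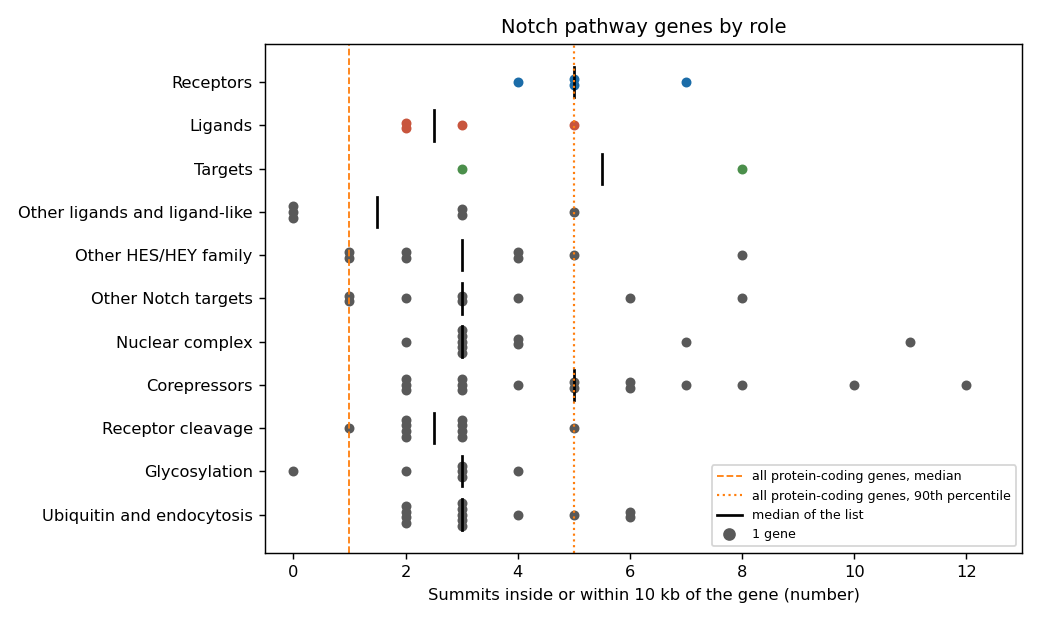
Each point is 1 gene, with the number of summits inside or within 10 kb on the horizontal axis and the lists by role down the page; short black lines are list medians, and the orange lines mark the median (1) and 90th percentile (5) of all protein-coding genes. Receptors and corepressors have the highest medians among lists of 4 or more genes, at 5 each, and the 4 genes at 0 are Dlk1, Mfap2, Mfap5 and Mfng.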

How the data were processed

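Chromatin of 5 ChIP and 3 input libraries was sequenced. The authors deposited 1 list of 32927 positions in bases, with start equal to end and no score. Per the submitters' processing notes, the build was mm10, and the tools named include the aligner Bowtie 1.1.2, the peak caller MACS2 2.1.1.20160309, the trimmers cutadapt 1.9.1 and Trim Galore 0.4.1, HOMER 4.9.1, Picard 2.1.0, bedtools and SAMtools 1.3. Settings, the handling of reads with several matches and the libraries behind each summit are not given in the sources used here.

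Summits were set against the RefSeq gene table of GRCm38.p6 (49980 genes), and strands and promoter sequences came from the RefSeq promoter table of the same build. The start of a gene was its boundary in the gene table, picked by strand. Promoter windows and the motif positions in them use the promoter table's own starts, which differ for some genes. For Dll1 the closest summit lies 927 bases from the first and 182 bases from the second. Every gene's count covers the gene plus the stated distance, and a summit may count for several genes. Distances were taken to gene boundaries. The 10 genes and the lists were chosen with earlier results of these data known, so counts stand beside shares of all genes and no test was run. The genes named from each further list were the 3 with the closest summit and all with none within 10 kb; others named were chosen after their values were seen, and some members that enter the counts are not reported here by name. Positions may count from 0 or 1, which moves a distance by 1 base. Counting was tested on simulated summits and matched a direct count for 300 of 300 genes. Alternatives covered other distances, single ends, nearest genes and merged summits. Python 3.11.15, numpy 2.4.6, pandas 2.3.3 and matplotlib 3.10.9 were used.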

Additional observations from a re-analysis of the deposited data

How the results depend on the processing

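All 10 genes kept a summit within 1, 5, 25 and 50 kb, with gene bodies left out beyond 10 kb of an end, by nearest gene and after merging, and 8 of the 8 with a direction kept one within 10 kb of the start. At 50 kb 78.3% of protein-coding genes also had one. Shares of all genes are not given for the other settings, so these counts describe the 10 genes alone. The sum of links over the 10 genes, 44 at 10 kb, was 32 at 1 kb, 42 at 5 kb, 58 at 25 kb, 41 near the ends alone, 41 by nearest gene and 33 after merging within 1 kb. It moved by over 1.5 times to 69 at 50 kb, a wider window, and to 23 within 10 kb of the start alone; the start setting leaves out Hes1 and Hey1 and also the gene bodies and ends, and the same 8 genes held 33 of the 44. Genes with at least 5 summits numbered 5, 4 by nearest gene and 3 after merging. This cut of 5 was chosen after seeing the data. Merging left 3 summits at Notch1 and 3 at Dll4. The background share of 68.4% was 46.7% of all annotated genes and 71.0% of autosomal protein-coding genes. In the 250 bases before the start alone, GATA was found in 1 window in place of 2, since the matches of Dll1 lie after its start. The density and the word GGGCGG were chosen after seeing the data. No paired analysis was possible because the summits are not assigned to libraries. With depth unknown, a place without a summit cannot be told from one below the threshold.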
